A study of Mus musculus with 6 samples.

Results

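The genes described here encode the proteins of the cytosolic ribosome and were measured in hearts of mice at postnatal day 7. They are the protein-coding genes whose symbol in the GRCm38 annotation begins with Rpl, Rplp or Rps followed by a digit, or is Rpsa, without symbols holding -ps and without the Rps6 kinases. The rule takes 86 of the 52550 mouse genes in the count files. Of these, 77 encode standard subunit proteins, 46 of the large and 31 of the small subunit. A further 7 are paralogs of such a protein, namely Rpl3l, Rpl10l, Rpl22l1, Rpl36al, Rpl39l, Rps27l and Rps27rt. The remaining 2 are not structural proteins of the ribosome: Rpl7l1, a relative of Rpl7 that acts in ribosome assembly, and Rps19bp1, a binding partner of Rps19. Fau and Rack1 also encode proteins of the ribosome but have other symbols and are given separately.

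The study compared 3 heart libraries of a genotype labelled ctrl with 3 labelled GR-cKO, whose cardiomyocytes carry a deletion of Nr3c1, the gene of the glucocorticoid receptor. Which Cre line drove it, which exon was removed and what alleles the controls carried is not given in the sources used here, and the labels call the libraries biological replicates without naming animals, so p-values measure the spread between these libraries. Each library started from 100 ng of total RNA, and the kit reads the 3′ end of polyadenylated transcripts (QuantSeq 3′ mRNA-Seq FWD), so a count is not divided by transcript length. Whole hearts were homogenised, and they also hold fibroblasts, endothelial cells and blood, in which the receptor gene is not targeted.

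A ribosome is assembled from ribosomal RNA and one copy of nearly every ribosomal protein, so cells make these proteins in matched amounts. Their mRNAs begin with a run of pyrimidines, the terminal oligopyrimidine tract, through which growth signalling by the kinase mTORC1 controls their translation more than their abundance. In striated muscle Rpl3l takes the place of Rpl3 in part of the ribosomes as the heart and skeletal muscle mature. Mammalian genomes also hold many processed pseudogenes of these genes, intronless copies of the spliced mRNA, and a short read from such an mRNA can match several loci equally well.

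Rps6, the small subunit protein that S6 kinases phosphorylate, is such a gene, and its sequence is printed for that reason. GENCODE M21 holds 14 other loci at 90% identity or more to at least 50% of its mRNA, all processed pseudogenes. One of them, Rps6-ps4 on chromosome 2, was identical over all 750 bases of the coding region with its stop codon. Gm8172 on chromosome X matched at 99.2% and Rps6-ps3 on chromosome 9 at 98.5% over the same length. The last 60 coding bases are given here 5′ to 3′ as the annotated transcripts read them (GRCm38, minus strand in each case), without capitals because no base differed between the 4 loci.
Rps6, exon with the stop codon, chr4:86854702-86854761: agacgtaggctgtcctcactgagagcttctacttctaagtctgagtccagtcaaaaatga
Rps6-ps4, chr2:75191073-75191132: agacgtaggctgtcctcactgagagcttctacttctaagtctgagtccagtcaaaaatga
Gm8172, chrX:69605496-69605555: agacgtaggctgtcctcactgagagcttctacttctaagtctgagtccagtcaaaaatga
Rps6-ps3, chr9:53689534-53689593: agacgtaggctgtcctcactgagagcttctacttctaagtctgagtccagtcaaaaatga
The representative Rps6 mRNA has 42 bases after the stop codon, so a read from its 3′ end soon enters this shared stretch. In the last 300 bases of that mRNA, 81.9% of all windows of 75 bases also occur in a transcript of another gene.

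The start of the mRNA is the other stretch that matters for this family. RefSeq promoters (GRCm38.p6) were matched for 66 of the 86 genes. The motif CTTTC lay on the transcribed strand within 20 bases of the start in 20 of these 66 (30.3%), against 6.44% of 27025 genes. CTCTTT, which overlaps CTTTC where a C follows, was found in 9 (13.6%, against 1.81%). On the opposite strand the shares were 6.06% against 5.67% for CTTTC and 1.52% against 1.68% for CTCTTT. The 30 bases around the RefSeq start, 15 on each side, are shown for 4 genes with a motif, and for Rpl3l as a gene without one, with the motif in capitals and the genomic strand given.
Rpl35a, chr16:33056467-33056496, plus: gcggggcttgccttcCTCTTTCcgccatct
Rpl28, chr7:4792950-4792979, plus: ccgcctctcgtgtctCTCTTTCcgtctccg
Rps6, chr4:86857353-86857382, minus: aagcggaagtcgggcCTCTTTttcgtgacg
Rps10, chr17:27635230-27635259, minus: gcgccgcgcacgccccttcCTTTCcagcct
Rpl3l, chr17:24727811-24727840, plus: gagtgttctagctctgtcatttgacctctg
Rpl3l has a second RefSeq start further downstream, also without either motif. The median log2 fold change of GR-cKO over control was -0.02 for the 18 tested genes with CTTTC and 0.01 for the 44 matched without it, while single genes ran from -0.79 to 0.35.

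The libraries held 17824953 to 22574722 reads in mouse genes, of which 563218 to 726421 fell in the 86 genes. Nr3c1 had 2618, 2558 and 1902 reads in the controls and 1031, 1044 and 1045 in GR-cKO hearts, a log2 fold change of -1.08 (edgeR quasi-likelihood test, adjusted p = 0.00101). Reads from the 3′ end do not measure the deletion unless it covers that end. Heart muscle markers (7 of 7 tested, none called) summed to 62002 to 73308 CPM in controls and 68305 to 82899 CPM in GR-cKO hearts. The 5 neutrophil markers summed to 12.6 to 15.3 and 19.5 to 27.8 CPM, and the 5 macrophage markers to 65.5 to 68.4 and 70.1 to 82.9 CPM, without overlap between the groups. All 5 neutrophil and 3 of the 5 macrophage markers had a fold change above 0, and none was called. The 5 markers of cycling cells summed to 157 CPM in GR-cKO replicate 3 and to 249 to 307 CPM in the other libraries. The part of these cells in the results below was not tested, and in bulk tissue fewer cells of a type and less RNA per cell cannot be told apart.

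GR-cKO replicate 3 and control replicate 2 had the widest spread in the ribosomal protein genes. For each of the 82 genes that passed the low-count filter, the deviation of log2 CPM from its mean over the 6 libraries was taken. The SD of these deviations was 0.280 in GR-cKO replicate 3 and 0.211 in control replicate 2, against 0.0874 to 0.132 in the other 4 libraries. Over the 1525 tested genes at 100 CPM or more the SD was 0.247 and 0.195, against 0.126 to 0.222, and the interquartile range 0.270 and 0.217, against 0.114 to 0.159. GR-cKO replicate 3 was the highest library for 39 of the 82 genes and control replicate 2 for 33. Much of the first count is shared with other genes: of those 1525 genes, 45.8% were highest in GR-cKO replicate 3 and 19.6% in control replicate 2. Gm42418, a transcript that overlaps ribosomal RNA, took 10.9% of reads in GR-cKO replicate 3 and 5.47 to 7.69% elsewhere.

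GR-cKO replicate 3 was lowest relative to the gene's mean for Rpl15 (a log2 difference of -0.70), Rps6 (-0.65) and Rps23 (-0.64), and highest for Rpl13 (0.61), Rps19 (0.59) and Rps12 (0.55). Control replicate 2 was highest for Rpl7a (0.61) and Rps4x (0.52), both core subunit proteins, and lowest for Rpl27a (-0.42). Some genes deviated in both, such as Rps29 (0.49 in GR-cKO replicate 3 and 0.39 in control replicate 2), Rps25 (0.53 and -0.36) and Rpl15 (-0.70 and 0.34). These genes were named after their values were seen. The Spearman correlation of the deviation with the level of the gene, over the 82 genes of one library, was 0.55 in GR-cKO replicate 3 and 0.21 and -0.13 in GR-cKO replicates 1 and 2. It was -0.41, -0.40 and -0.34 in the controls. Deviations are taken from a shared mean, so the 6 values are not independent. Over the 1525 genes at 100 CPM or more it lay between -0.13 and 0.06. Those genes were cut at 100 CPM while 14 of the 82 lay under it, so the sets are not alike in level. Comparisons below are therefore in many cases also given without GR-cKO replicate 3 or control replicate 2 where that moves them.

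**Figure D1:**
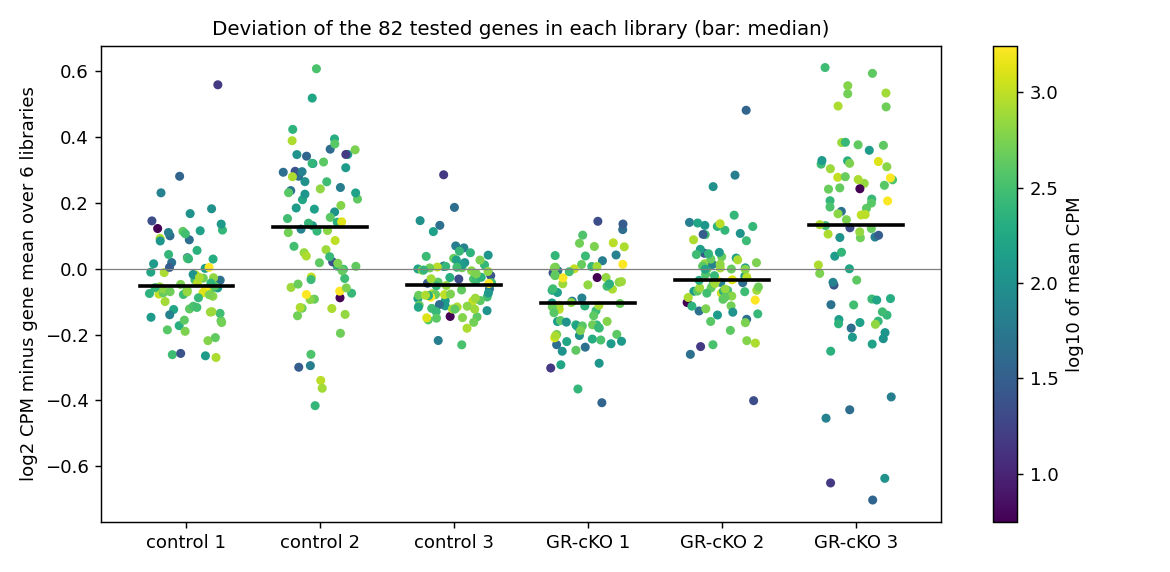
Deviation of each of the 82 tested genes from its mean over the 6 libraries (y axis, log2 CPM) in each library (x axis), coloured by the log10 of its mean CPM, with the median as a black bar. The points spread most in GR-cKO 3 (SD 0.280), and next in control 2 (SD 0.211).

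The genes differed widely in level although most of the standard proteins are used in equal number. The median over the 86 genes was 295 CPM, against 13.7 CPM over all tested genes, and the middle of the 77 standard proteins ran from 153 CPM at the lower quartile to 601 CPM at the upper. Rps14, Rplp1 and Rps21 were the 3 highest. Rps14, which lies on the platform of the small subunit, was at 1750, 1665 and 1644 CPM in controls and 1713, 1634 and 2113 CPM in GR-cKO hearts. Rplp1, part of the acidic stalk that recruits elongation factors, was at 1635, 1615 and 1653 CPM in controls and 1721, 1666 and 1966 CPM in GR-cKO hearts. The 3 GR-cKO values lay above the 3 control values for Rplp1 and overlapped them for Rps14. Rps21 was at 1216, 1412 and 1154 CPM and at 1106, 1250 and 1603 CPM, also overlapping.

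At the other end 18 genes were under 100 CPM, 10 of them standard subunit proteins. Rpl24, a protein at the bridge between the subunits, had 2, 0 and 3 reads in controls and 0, 8 and 0 in GR-cKO hearts and was not tested. Its annotation overlaps that of Gm28037 on the same strand over 71.5% of its mRNA and 58.3% of the last 300 bases, and Gm28037 was itself listed at 0 reads in every library. The 6 near-identical copies of Rpl24 together had 36 to 54 reads per library. A comparable overlap with Gm49383 covered 69.0% of the last 300 bases of Rpl36al, the lowest tested gene, at 5.03 to 6.08 CPM in controls and 5.19 to 6.62 CPM in GR-cKO hearts. These levels describe the reads assigned to the gene, and how the counting treated reads that fit several genes is not given in the sources used here.

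Near-identical copies were common but held few of the assigned reads. For 64 of the 86 genes there was at least 1 other locus at 90% identity over 50% of the mRNA, 802 loci in all, and 146 of them had no read in any library. Each locus was credited only to its best match, and Rps27 was given none although all its 3′ windows were shared. Their reads made up 0.0249, 0.0268 and 0.0242% of mouse gene reads in controls and 0.0259, 0.0259 and 0.0231% in GR-cKO hearts, overlapping, with means of 0.0253% ± 0.00138 and 0.0250% ± 0.00159 (SD, n = 3 each, exact permutation test, 2-sided p = 0.8). In 3 against 3 libraries this test cannot go below 0.1. Any reads dropped for fitting several loci would appear in neither the genes nor the copies. The share of the copies therefore does not measure what was lost. The level of a gene was then set beside the sharing of its 3′ end. Among the 10 standard proteins under 100 CPM, a median of 80.8% of the 3′ windows occurred in another gene's transcript, and among the other 67 the median was 43.4%. The 3′ end was that of 1 annotated transcript per gene, as long as 5130 bases for Rps15a, and where the reads ended was not checked. Rpl11 and Rpl6 had no shared window although 8 and 9 near-identical copies were found. By this measure the relation was loose. Rpl13a was low with no shared window, though Gm45713, listed at 0 reads in every library, overlapped 59.3% of its mRNA on the same strand. That overlap did not reach its last 300 bases. Rpl36a, Rpl9, Rps12 and Rps27 had every window shared at well over 100 CPM. Rpl10 and Rps27rt also had every window shared, at means of 63.8 and 0.274 CPM. Over all tested genes of the family the Spearman correlation between mean CPM and the shared share was -0.06. This set differs from the standard proteins of the medians above, as it adds tested paralogs, Rpl7l1 and Rps19bp1 and lacks Rpl24.

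**Figure D2:**
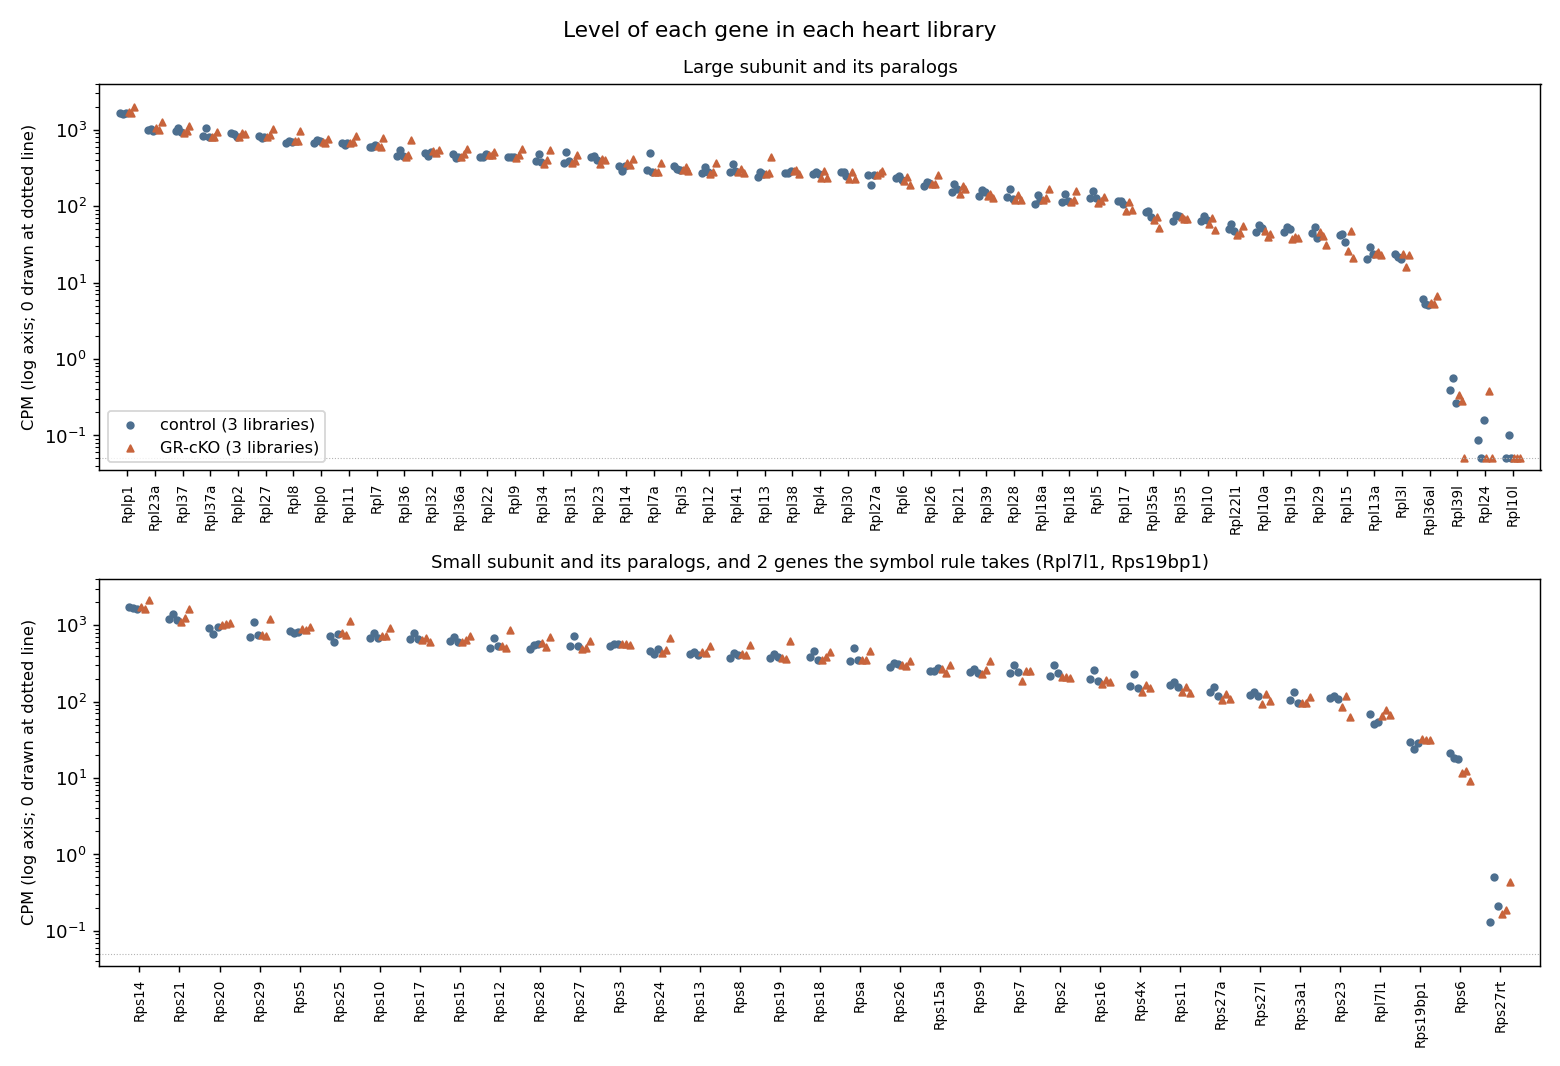
Level of each of the 86 genes (x axis, ordered by mean) in each library, in CPM on a log axis, with controls as circles and GR-cKO as triangles and 0 drawn at the dotted line. Most genes lie between 100 and 2000 CPM with the groups intermingled, and Rpl24, Rpl10l, Rpl39l and Rps27rt lie near 0.

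The first comparison asks whether deletion of the receptor in cardiomyocytes changed the mRNA levels of these genes. None of the 82 tested genes was called higher or lower (edgeR quasi-likelihood test, adjusted p under 0.05), where 0.00673% of the 14860 genes tested were called, namely Nr3c1 alone. DESeq2 called none of the 82 (against 0.0269% of all genes) and limma voom none. At an unadjusted p under 0.05 there were 7, 2 higher and 5 lower, or 8.54% of the family, against 4.2% of all genes tested (2.07% higher and 2.13% lower). At 100 CPM or more the shares were closer, 4 of 68 (5.88%) against 76 of 1525 (4.98%). The count depended on the libraries and the setting. It was 2 without control replicate 2 (2.44%, against 2.77% of all genes), 14 without GR-cKO replicate 2 (17.1%, against 5.67%), 2 with scaling by spike-in reads (2.44%, against 1.64%) and 15 without the low-count filter (18.3%, against 5.57%). DESeq2 gave 8 (9.76%, against 4.29%) and limma voom 9 (10.98%, against 4.43%). In 9 genes (10.98%) the groups did not overlap, 3 lower and 6 higher in GR-cKO hearts, against 9.97% of all genes tested (5.27% lower and 4.7% higher).

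Fold changes lay on both sides of 0. The log2 fold change was above 0 for 43 genes and below 0 for 39, with a median of 0.02 beside 0.01 over all genes. For 35 of the 82 the sign turned when 1 library was left out. The log2 fold change ran from -0.79 for Rps6 to 0.35 for Rps25. The standard error had a median of 0.13, against 0.21 over all genes. For 69 of the 82 genes (84.1%, against 47.8% of all genes) the 95% interval left out any change of 1.5-fold or more. For 81 (98.8%, against 72.2%) it left out any of 2-fold or more. At 100 CPM or more the family was not measured more tightly than other genes. There the median standard error was 0.122 against 0.117, and 88.2% against 94.3% of intervals left out 1.5-fold. Those intervals hold with the spread as measured, including the 2 libraries that stood apart. In the plot of fold changes the remaining gene, whose interval reached past 2-fold, is Rps6.

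**Figure D3:**
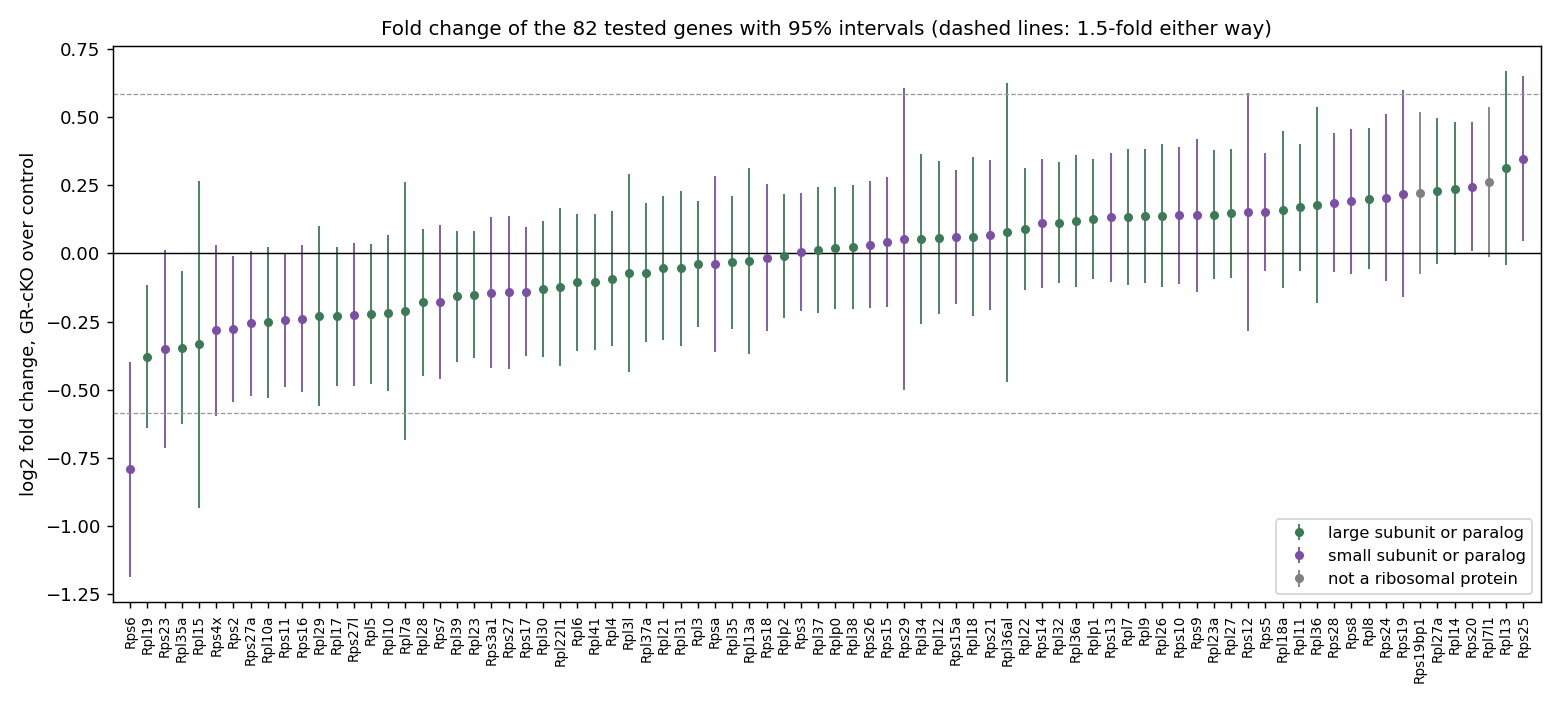
Log2 fold change of GR-cKO over control (y axis, point) with its 95% interval (bar) for the 82 tested genes, ordered by size and coloured by subunit, with dashed lines at 1.5-fold. All points but Rps6 lie between the dashed lines, and most intervals cross 0.

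The large subunit was spread evenly around 0. Of its 48 tested genes, paralogs included, 23 were above and 25 below 0, with a median log2 fold change of -0.02 and a range from -0.38 to 0.31. Rpl19, whose mRNA is often used as a reference, had the smallest p. It was at 46.4, 53.5 and 49.7 CPM in controls and 37.2, 39.2 and 38.5 CPM in GR-cKO hearts. Every GR-cKO library lay below every control library, with means of 49.8 ± 3.55 and 38.3 ± 1.04 CPM (SD, n = 3 each). This gave -0.38 ± 0.12 on the log2 scale (SE, edgeR adjusted p = 0.998). It ran from -0.43 to -0.32 when each library was left out in turn. Its 15 near-identical copies had 224 reads in control replicate 2 and 86 to 122 in the others, beside 666 to 1061 reads of Rpl19 itself.

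Rpl35a, a protein lost in a form of Diamond-Blackfan anaemia, was at 83.3, 87.1 and 71.4 CPM in controls and 66.8, 71.7 and 51.9 CPM in GR-cKO hearts. Control replicate 3 fell just below GR-cKO replicate 2, and GR-cKO replicate 3 was the lowest of all. The log2 fold change was -0.35 ± 0.13 (SE, edgeR adjusted p = 0.998), and -0.22 without GR-cKO replicate 3. Of the large subunit genes often used to normalise other measurements, Rplp0 was at 674, 732 and 706 CPM in controls and 698, 678 and 765 CPM in GR-cKO hearts. Rpl32 was at 492, 455 and 503 CPM and at 530, 502 and 536 CPM. Both overlapped between the groups, with log2 fold changes of 0.02 (95% interval -0.20 to 0.24) and 0.11 (-0.11 to 0.33), and that of Rplp0 turned to -0.02 with scaling by library totals. Rpl13a, the third of these, was at 20.1, 29.5 and 23.7 CPM and at 23.8, 24.9 and 23.2 CPM, so that its reads numbered only 427 to 575 per library.

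The small subunit held the extremes. Of its 32 tested genes 18 were above and 14 below 0, with a median of 0.04. Rps6 was at 21.2, 18.3 and 17.6 CPM in controls and 11.7, 12.2 and 9.14 CPM in GR-cKO hearts. The groups did not overlap, and a wide gap separated the highest GR-cKO library from the lowest control. Means were 19.1 ± 1.94 and 11.01 ± 1.64 CPM (SD, n = 3 each), with a log2 fold change of -0.79 ± 0.19 (SE, 95% interval -1.18 to -0.40, edgeR adjusted p = 0.998). With DESeq2 the adjusted p of Rps6 was 0.177, the smallest of the family. Its log2 fold change stayed between -0.88 and -0.67 with each library left out, and its smallest edgeR adjusted p among these fits was 0.487.

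How much of the Rps6 mRNA these reads stand for is not known. Rps6 had the second lowest mean CPM of the tested genes, while the median standard protein was at 334 CPM. The reads were 486, 357 and 335 in controls and 209, 259 and 170 in GR-cKO hearts. Its 14 copies had 68, 54 and 31 reads in controls and 37, 60 and 44 in GR-cKO hearts, overlapping between the groups. With those reads added to Rps6 the log2 fold change was -0.68 (edgeR adjusted p = 0.999). Reads from the stretch printed above, common to 4 loci, cannot be told apart by their letters.

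Rps25, needed for initiation at several viral internal ribosome entry sites, had the highest fold change. It was at 723, 603 and 759 CPM in controls and 779, 751 and 1122 CPM in GR-cKO hearts, overlapping, with control replicate 2 the lowest and GR-cKO replicate 3 the highest library. The log2 fold change was 0.35 ± 0.14 (SE, edgeR adjusted p = 0.998), and 0.14 without GR-cKO replicate 3. Rps2, a protein at the mRNA entry channel, was at 216, 305 and 235 CPM in controls and 210, 210 and 203 CPM in GR-cKO hearts. The groups did not overlap, though control replicate 1 lay close to the GR-cKO libraries. Its log2 fold change was -0.28 ± 0.13 (SE, edgeR adjusted p = 0.998), and -0.12 without control replicate 2. Rps18, the remaining reference gene, was at 377, 459 and 351 CPM and at 347, 379 and 449 CPM, fully intermingled, with a 95% interval of -0.28 to 0.25 on the log2 scale.

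**Figure D4:**
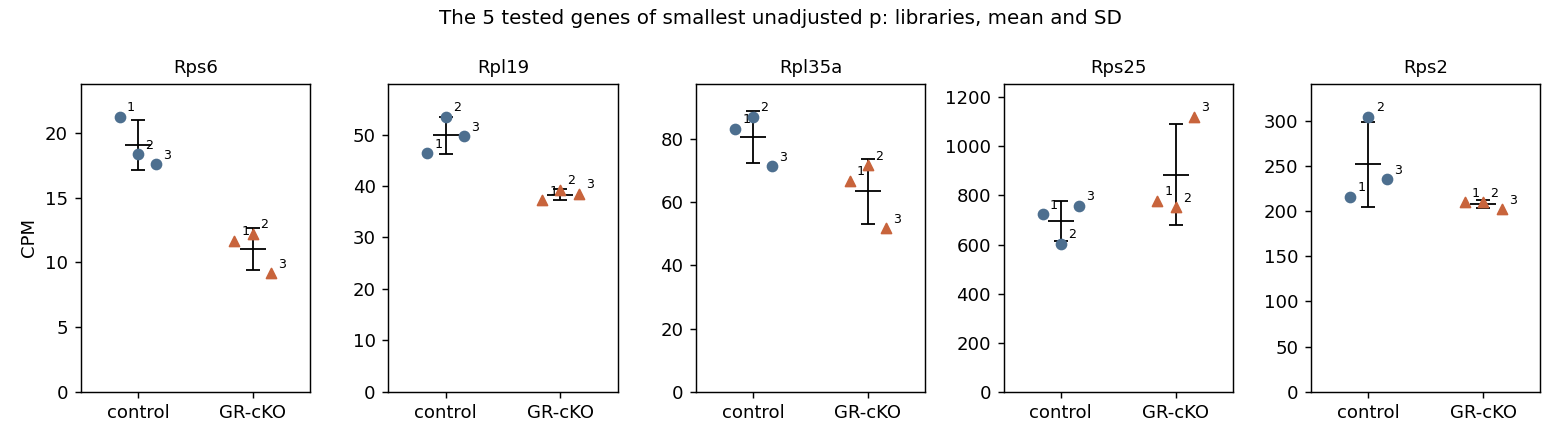
CPM (y axis, from 0) in each library for the 5 tested genes of smallest unadjusted p, with replicate numbers beside the points and black bars for mean and SD. Rps6, Rpl19 and Rps2 do not overlap between the groups, and Rpl35a and Rps25 do. GR-cKO 3 is the lowest library for Rps6, Rpl35a and, by a narrow margin, Rps2, and the highest for Rps25.

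Fold changes ran with the level of the gene. Above 500 CPM 21 of 25 genes were above 0, with a median log2 fold change of 0.13, while under 100 CPM 11 of 14 tested genes were below 0, with a median of -0.17. Between these levels 19 were above and 24 below 0. Of all tested genes 56.5% were above 0 over 500 CPM and 50.5% under 100 CPM. Without GR-cKO replicate 3 the genes over 500 CPM stood at 12 above and 13 below 0, with a median of -0.00110, and the low ones at 2 above and 12 below. Without control replicate 2 the counts were 24 of 25 above 0 and 9 of 14 below 0, with medians of 0.12 and -0.09. Without both libraries the counts were 17 of 25 above 0 and 9 of 14 below 0, with medians of 0.01 and -0.05. These bands were chosen after the values were seen, and no test was made of them.

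As a whole the family's share of the transcriptome differed by less between the genotypes than between libraries of one genotype. It held 3.22, 3.50 and 3.19% of mouse gene reads in controls and 3.16, 3.41 and 3.47% in GR-cKO hearts. The groups overlapped, with means of 3.30% ± 0.169 and 3.35% ± 0.166 (SD, n = 3 each, exact permutation test, 2-sided p = 1.00). The log2 ratio of large to small subunit reads was 0.192, 0.129 and 0.171 in controls and 0.166, 0.198 and 0.0850 in GR-cKO hearts. The means were 0.164 ± 0.0325 and 0.150 ± 0.0584 (SD, n = 3 each, exact permutation test, 2-sided p = 0.8). GR-cKO replicate 3 had the lowest ratio and control replicate 2 the next lowest, so the low values belonged to 1 library of each genotype.

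Paralogs were measured against the protein they resemble, as a log2 ratio within each library that does not depend on scaling. Of 8 such pairs 6 could be compared, and none passed the test of genotype (exact permutation test, 2-sided, adjusted p over the 6 pairs 0.840 to 1.00). Rpl3l, the muscle paralog of Rpl3, was at 23.3, 21.4 and 20.6 CPM in controls and 23.28, 15.9 and 22.97 CPM in GR-cKO hearts. Rpl3 was at 330, 307 and 298 CPM and at 296, 330 and 284 CPM. The log2 ratio was -3.82, -3.84 and -3.85 in controls, a very narrow range, and -3.66, -4.36 and -3.62 in GR-cKO hearts, so that Rpl3l stood at 7.01% and 6.78% of Rpl3 on average. The GR-cKO values lay on both sides of the controls, replicate 2 below and the other two above, and without replicate 2 the mean difference turned from -0.05 to 0.19. Percentages for this and the other pairs are of assigned reads, not of mRNA molecules. Of the 3′ windows, 73.9% were shared with other genes' transcripts for Rpl3 and 0% for Rpl3l. For Rpl22 and Rpl22l1 the shares were 4.42% and 58.8%.

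Rpl22l1, the paralog of the RNA-binding protein Rpl22, was at 11.4% of Rpl22 in controls and 9.78% in GR-cKO hearts. Its log2 ratio was -3.16, -2.92 and -3.34 in controls and -3.50, -3.37 and -3.19 in GR-cKO hearts, and it overlapped (exact permutation test, 2-sided p = 0.200, adjusted p = 0.840). Rps27l, a paralog of Rps27 that p53 induces, stood at 21.3% and 19.9% of Rps27, with overlapping ratios. Rpl36al stood at 1.24% and 1.20% of Rpl36a, with the overlap in annotation given above. Rpl7l1 stood at 9.54% and 10.6% of Rpl7. Rps4l, annotated as a transcribed processed pseudogene and so outside the 86 genes, ranged most: its log2 ratio to Rps4x was -0.15, -1.12 and -0.16 in controls and -0.07, -0.27 and 0.37 in GR-cKO hearts. The low control value came from control replicate 2, where Rps4x was highest, at 233 CPM, and 133 to 162 CPM was measured elsewhere.

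Paralogs known from the testis were near 0. Rpl10l had 2 reads in control replicate 2 and 0 in the other 5 libraries, beside 896 to 1478 reads of Rpl10. Rpl39l had 9, 11 and 5 reads in controls and 6, 6 and 0 in GR-cKO hearts, beside 2374 to 3155 reads of Rpl39. Rps27rt, an intronless Rps27 gene whose 3′ windows all occur elsewhere, had 3 to 10 reads. None of these passed the filter, and no ratio was formed for them.

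**Figure D5:**
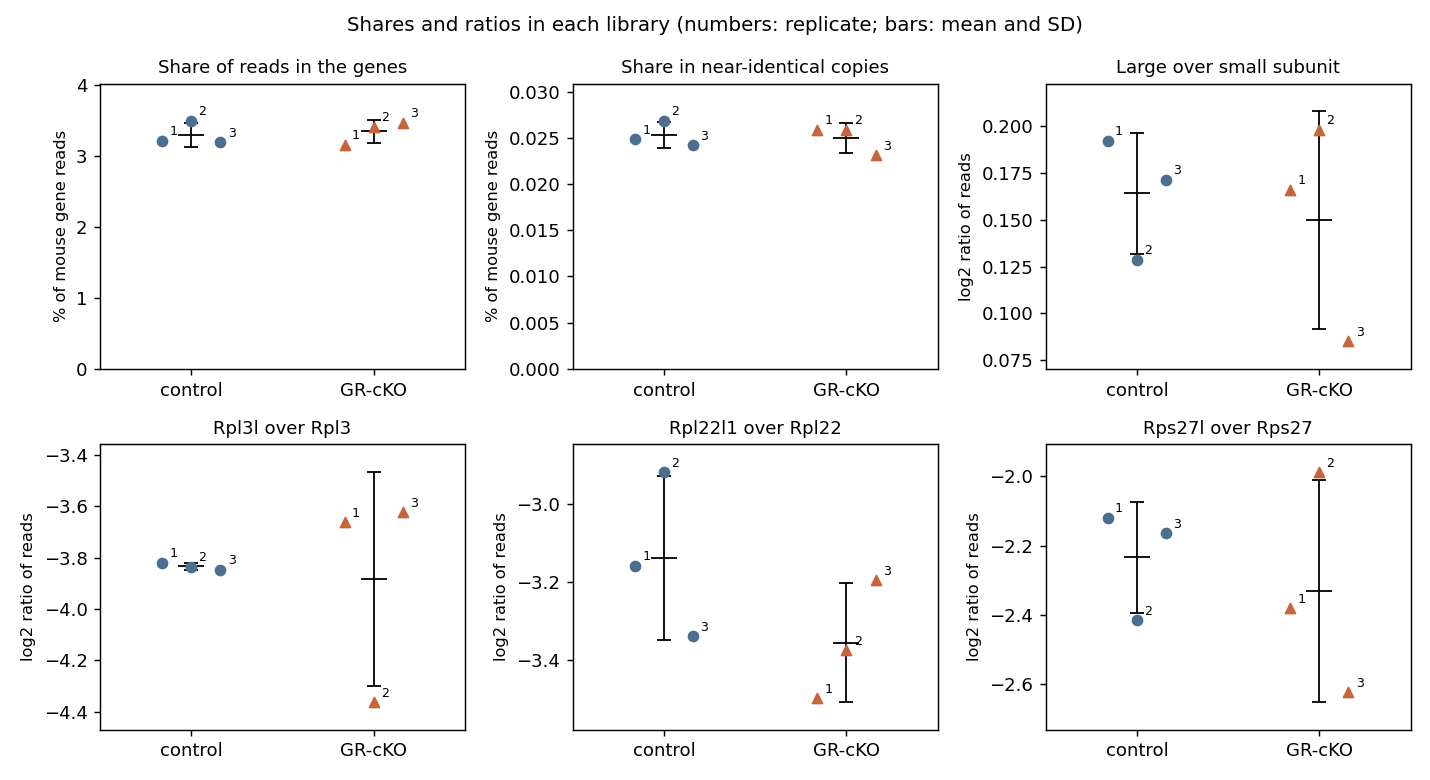
Share of mouse gene reads in the 86 genes and in their near-identical copies (y axis, %), and log2 ratios of reads between subunits and between paralogs, in each library, with replicate numbers beside the points and black bars for mean and SD. The groups overlap in every panel, and the 3 control values of Rpl3l over Rpl3 lie within -3.85 to -3.82.

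Other parts of the translation machinery were read from fixed lists, none of whose genes was called (edgeR adjusted p under 0.05). Rack1, a scaffold on the small subunit head, was at 699, 723 and 717 CPM in controls and 741, 708 and 850 CPM in GR-cKO hearts, overlapping. Fau, which encodes a small subunit protein as a fusion, was at 249, 295 and 227 CPM and at 229, 235 and 309 CPM, also overlapping. Of 35 translation factors 23 were above and 12 below 0, with a median log2 fold change of 0.06 and 2 at an unadjusted p under 0.05 (5.71%, against 4.2% of all genes). Eif6, which keeps large subunits from joining early, was at 35.9, 41.7 and 33.7 CPM in controls and 44.8, 52.5 and 45.9 CPM in GR-cKO hearts, without overlap (log2 fold change 0.37 ± 0.13, SE, edgeR adjusted p = 0.998). Eif3e, a subunit of the initiation factor eIF3, had means of 90.7 ± 11.7 and 71.4 ± 9.49 CPM (SD, n = 3 each), with a slight overlap.

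The 26 other transcripts listed as having a terminal oligopyrimidine tract, Gas5 and Snhg genes among them, had a median of 0.01, with 15 above and 11 below 0. The lists overlap: several translation factors, Fau and Rack1 are counted here again, and Npm1 is also among the assembly factors. Eif3e is among the genes at an unadjusted p under 0.05 in both this list and that of translation factors. At an unadjusted p under 0.05, 5 were lower (19.2%, against 2.13% of all genes) and none higher. Without control replicate 2 there was 1 lower (3.85%, against 2.77% of all genes in either direction), and with spike-in scaling 0 (against 1.64%). Without GR-cKO replicate 2 there were 6 lower and 2 higher (30.8%, against 5.67%). Scaling by library totals gave 5 lower and 0 higher (19.2%, against 3.57%). In 3 genes (11.5%) the groups did not overlap, against 9.97% of all genes. Naca, which guards nascent chains at the ribosome exit, was at 192, 217 and 184 CPM in controls and 169, 174 and 109 CPM in GR-cKO hearts, without overlap. GR-cKO replicate 3 was its lowest library. The log2 fold change of Naca was -0.39, and it ran from -0.51 to -0.20 when each library was left out in turn. Ipo7, an import receptor that carries ribosomal proteins into the nucleus, was at 68.2, 79.1 and 65.7 CPM and at 51.8, 68.8 and 50.7 CPM, overlapping. Both had an edgeR adjusted p of 0.998.

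Of 52 ribosome assembly factors and RNA polymerase I genes 31 were above and 21 below 0, with a median of 0.07. Here 7 were higher and 1 lower at an unadjusted p under 0.05 (15.4%, against 4.2% of all genes), and in 17 (32.7%, 12 higher and 5 lower) the groups did not overlap, against 9.97% of all genes. Mrto4, which occupies the stalk site during large subunit assembly, was at 29.99, 22.8 and 33.4 CPM in controls and 33.7, 37.5 and 45.2 CPM in GR-cKO hearts. Nop56, a core protein of the box C/D particles that methylate ribosomal RNA, was at 14.6, 11.1 and 14.3 CPM and at 20.1, 14.9 and 21.7 CPM. Both sets lay higher in GR-cKO hearts without overlap, control replicate 2 being the lowest library in each. Sbds, which helps release Eif6, was lower in every GR-cKO library, at 46.3, 45.6 and 46.4 CPM and at 33.7, 38.6 and 38.8 CPM (edgeR adjusted p = 0.998 for all 3). Without control replicate 2 there were 1 higher and 1 lower (3.85%, against 2.77% of all genes). With scaling by library totals there were 2 higher and 2 lower (7.69%, against 3.57%), and by spike-in reads 2 higher (3.85%, against 1.64%). Without control replicate 1 there were 7 higher and 0 lower (13.5%, against 3.67%). Without control replicate 3 there were 3 higher and 1 lower (7.69%, against 3.85%). Leaving out GR-cKO replicate 1 gave 4 higher and 0 lower (7.69%, against 4.73%). Leaving out GR-cKO replicate 2 gave 4 higher and 1 lower (9.62%, against 5.67%), and GR-cKO replicate 3 gave 4 higher and 2 lower (11.5%, against 5.11%).

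Growth control genes around mTORC1, the S6 kinases and Myc had a median of -0.06 over 29 genes, 12 above and 17 below 0. At an unadjusted p under 0.05 there were 2, both lower (6.90%, against 4.2% of all genes). That count was 0 without control replicate 1 (against 3.67% of all genes) and 0 with spike-in scaling (against 1.64%). Without control replicate 3 it was 4, 1 higher and 3 lower (13.8%, against 3.85%). In 5 of the 29 (17.2%) the groups did not overlap, all lower, against 5.27% of all genes in that direction. Sesn1, an inhibitor of mTORC1 that p53 induces, was at 48.5, 39.4 and 43.5 CPM in controls and 35.5, 35.5 and 31.8 CPM in GR-cKO hearts. Rraga, a Rag GTPase that brings mTORC1 to the lysosome, was at 88.0, 75.6 and 73.2 CPM and at 62.2, 72.0 and 60.9 CPM. Rheb, the GTPase that activates mTORC1, had means of 43.2 ± 7.34 and 35.7 ± 1.69 CPM (SD, n = 3 each). For all 3 the edgeR adjusted p was 0.998, and for the first 2 every GR-cKO library lay below every control library.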

How the data were processed

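The authors deposited raw read counts per Ensembl gene for each library. The submitters' processing notes name cutadapt 1.16, STAR 2.5.4a and featureCounts 1.6.2 among the tools, and the GRCm38 build. Read length, strand setting, annotation release and the handling of multiply mapped reads: none is given in the sources used here. Symbols, coordinates and transcripts came from GENCODE M21 (same build). Genes were filtered by filterByExpr, scaled by TMM and tested with the edgeR 4.0.16 quasi-likelihood test in R 4.3.3 over 14860 genes, with Benjamini-Hochberg adjustment at 0.05. CPM is TMM-scaled. Intervals are at 95%. Copies were found with BLAST 2.17.0 between GENCODE transcripts, so unannotated loci were not searched. DESeq2 1.42.0, limma 3.58.1, other scalings and other libraries left out were alternatives, and the fit was tested on simulated counts. Named genes are Rps6, fixed paralog pairs, 4 reference genes, the 5 tested genes of smallest p, the 3 of highest and 3 of lowest mean CPM, up to 3 of smallest p in each other list, and Nr3c1. Members and lists were chosen with earlier results of these data known. 1 item of the lists is not reported here.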

Additional observations from a re-analysis of the deposited data

How the results depend on the processing

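No alternative run called any of the 82 genes: DESeq2 size factors, library totals, spike-in scaling, no low-count filter, the DESeq2 and voom tests, added copies, or any library left out. The family's median log2 fold change ran from -0.07 to 0.07 with each library left out. Differences near 0 changed sign, none past a threshold, and the cause was not tested. With each library left out the share of reads differed by -0.0158 to 0.143 percentage points and that of copies by -0.000889 to 0.00059, the large to small log2 ratio by -0.0386 to 0.0180, and the ratios of Rpl3l by -0.177 to 0.191, Rps27l by -0.270 to 0.0489, Rpl36al by -0.0884 to 0.0204 and Rpl7l1 by -0.00118 to 0.289. The median of translation factors ran from -0.0186 to 0.0764 and that of growth control from -0.105 to 0.0124, and the latter was -0.0110 with spike-in scaling. Single genes ran from -0.160 to 0.0843 (Rpl3l), -0.106 to 0.00545 (Rpl3), -0.259 to 0.0198 (Rps27), -0.0342 to 0.162 (Rpl36al), -0.00110 to 0.202 (Rpl7), -0.0331 to 0.0522 (Rplp0), -0.152 to 0.132 (Rpl13a), -0.125 to 0.105 (Rps18), -0.0973 to 0.182 (Rps21), -0.0112 to 0.179 (Rps14) and -0.145 to 0.117 (Fau).

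From mean log2 CPM the large to small difference was 0.00855. Without both control replicate 2 and GR-cKO replicate 3, chosen after seeing the data, it was 0.00024, the copies' share differed by 0.00136 and Rps4l over Rps4x by -0.0151. The log2 fold changes were then -0.0623 (Rpl36al), -0.00900 (Rpl36a), -0.0989 (Rps4l), -0.0175 (Rpl7), -0.00409 (Rplp0), 0.154 (Rpl13a), -0.00829 (Rps21), -0.0206 (Rps14) and -0.0353 (Fau). Spike-in scaling gave 0.0226 for Rpl3, 0.0352 for Rpl13a and 0.0276 for Rps18. Library totals gave -0.0207 for Rplp0 and -0.0421 for Fau.

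The labels do not say whether control and GR-cKO libraries of the same replicate number belong together. Correlations of same-numbered deviations were 0.0620, 0.0562 and 0.0144, and those of the other pairs ran from -0.0893 to 0.0294. Values this small and this few cannot decide whether the numbers mark pairs. With the number as a replicate block the family's median was 0.01, Rps6 was at -0.80, Fau at -0.000184, and no call changed. Unadjusted p under 0.05 then held for 10 of 82 genes (12.2%, against 4.33% of all).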
